A study of Mus musculus with 7 samples.

Results

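Ectopic ventral oligodendrocytes (eOLs) are ventrally derived cells that occupy cortex from which most, but not all, of the dorsally derived lineage has been ablated. Here they were compared with ventrally derived oligodendrocytes of control mice. Cells were taken from the annotation of a droplet single-cell RNA sequencing (scRNA-seq) experiment if their library was ectopic vOLCs or control vOLCs (ventrally derived oligodendrocyte lineage cells) and their cluster was MFOLb, MOL1, MOL2a, MOL2b or MOL5/6a to MOL5/6d. This gave 2199 ectopic and 788 control cells, 2987 of the 9291 kept cells of the study. Both sides share the ventral origin, so the comparison addresses what differs in ventral cells once most dorsal cells are missing. The remaining library, control dOLCs (dorsally derived) with 4858 cells in these clusters, is given beside the values.

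All mice were P90 and on a C57BL/6-B6CBA background of both sexes. Control mice carried Emx1-Cre, active in the dorsal forebrain lineage, and a Sox10 reporter that switches from GFP to tdTomato after recombination. Their GFP+ cells are the control vOLCs and their tdTomato+ cells the control dOLCs. Ablated mice carried in addition Sox10-GFP-DTA, from which the Cre releases diphtheria toxin fragment A in dorsal Sox10-expressing cells, and their GFP+ cells are the ectopic vOLCs. The second transgene, the ablation and the individual mice all separate the sides in the same way and cannot be told apart. The cells came from 4 control and 2 ablated mice, pooled within a library, with 1 library a side. There is therefore no test between conditions, and the range in parentheses after a ratio is its 95% exact binomial interval, which covers counting error only and leaves out how mice vary. The study discarded another cohort of control and experimental mice for strong batch effects, which is not analysed here. The labels give motor and cingulate cortex as the region, whereas the dissociation protocol of the study names neocortex and then the corpus callosum.

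Oligodendrocytes wrap axons in myelin, a membrane rich in cholesterol and galactolipids, and keep a microtubule network that carries myelin mRNAs into their processes. Newly differentiated cells pass through a myelin-forming stage (MFOL) and settle into mature states (MOL), of which MOL5/6 is typical of the adult cortex and MOL2 is marked by the protease gene Klk6. Forebrain oligodendrocyte precursors (OPCs) arise from ventral and later from dorsal progenitors, and the dorsal ones come to make up most of those in the cortex.

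The 2 vOLC libraries held 12894985 unique molecular identifiers (UMIs) in ectopic and 4356594 in control cells, with a median per cell of 5665 and 5313.5. The control dOLCs held 19890137. Within clusters the order often turned: the ectopic median was the lower in MOL5/6a (4391 against 5584) and MOL2a (6050 against 6762). It was also lower in MOL5/6b, MOL5/6c, MOL5/6d and MOL2b, and higher in MOL1 and MFOLb. The clusters were unevenly filled: 837 ectopic but 35 control vOLCs lay in MOL5/6d, 900 and 237 in MOL5/6a, 42 and 236 in MOL5/6b, and 115 and 179 in MOL2a. Counts were summed over cells and scaled to the library total (CPM), and ratios are log2 of ectopic over control. A ratio over all 8 clusters mixes differences within clusters with unequal cluster sizes. A weighted ratio is therefore also given, in which each cluster counts with its share of control vOLCs. Weighted ratios carry no interval and are less precise than the summed ones where a thinly filled cluster weighs much. MOL5/6b has 29.9% of the weight, yet its ectopic side rests on 42 cells and 138892 UMIs. Oligodendrocyte markers summed to 67636 CPM in ectopic and 68067 in control vOLCs, and the summed markers of astrocytes (572 and 585 CPM), neurons (52.7 and 51.2), microglia (32.0 and 37.9) and endothelial cells (440 and 467) were alike. Ectopic vOLCs shared 7 barcode sequences with control vOLCs and 29 with control dOLCs. The control vOLC library stood apart from both others in copies of ribosomal protein genes, whose summed level was 370.5 CPM in ectopic vOLCs, 789.2 in control vOLCs and 316.4 in control dOLCs. Levels are therefore given for all 3 libraries, in the order ectopic vOLCs, control vOLCs and control dOLCs.

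Of 5649 genes past the filter on low counts, 85 (1.5%) were at least 1.5-fold higher in ectopic vOLCs and 675 (11.9%) at least 1.5-fold lower, with a median log2 ratio of -0.05. At a fold of 2, 11 (0.195%) were higher and 146 (2.58%) lower. With weighted clusters the numbers were 74 (1.31%) and 647 (11.5%). This excess of lower genes depended on scaling: with TMM factors, which add 0.17 to every log2 ratio, 298 genes were higher and 365 lower. With control dOLCs as the control, 46 genes (0.869%) were higher and 578 (10.9%) lower. Between both control libraries, 150 of 5460 genes (2.75%) were higher and 46 (0.842%) lower in vOLCs than in dOLCs. A ratio of 1 sign in every cluster holding 10 or more UMIs was found for 390 genes, 6.9% of those tested. These 3 comparisons share libraries, so that a library standing apart enters more than 1 of them.

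**Figure D1:**
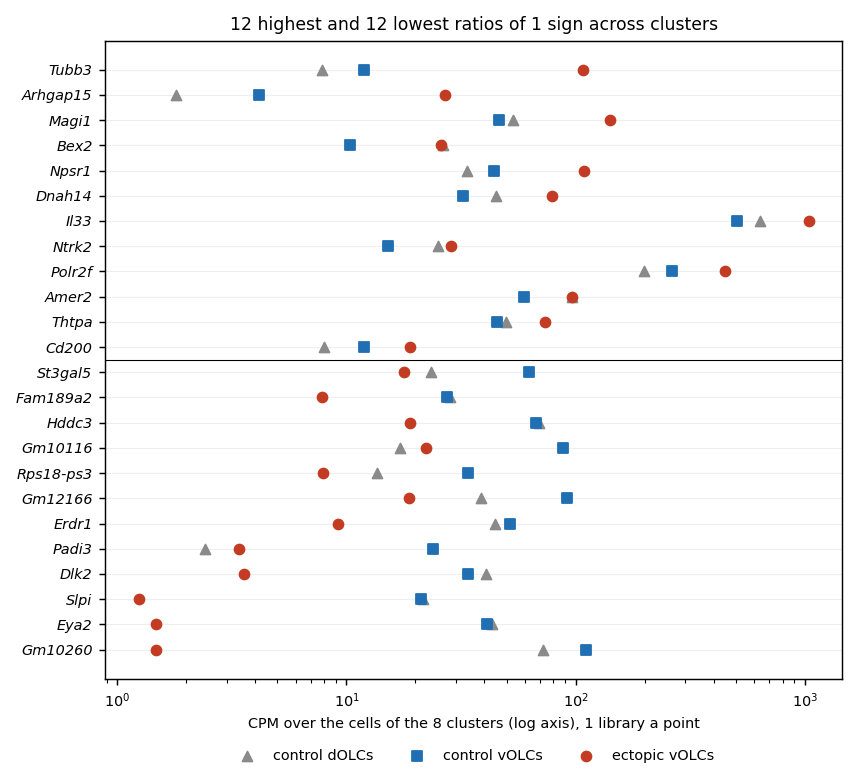
Level in CPM (log axis) of the 12 genes with the highest and the 12 with the lowest ratio among genes with 1 sign in every cluster, 1 point per library. Tubb3, Arhgap15, Magi1 and Npsr1 lie to the right of both control libraries in ectopic vOLCs, and Gm10260, Eya2, Slpi and Dlk2 to the left, whereas for Padi3, Gm10116 and St3gal5 the control vOLCs stand apart from both other libraries.

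The largest positive ratio among the genes tested was that of Tubb3, which encodes a beta-tubulin best known from neurons. It stood at 107.7 CPM in ectopic vOLCs, 11.9 in control vOLCs and 7.79 in control dOLCs, 9.02-fold above control vOLCs (log2 ratio 3.17, 95% interval 2.77 to 3.60). The ectopic level was the higher in all 8 clusters, with a log2 ratio of 3.60 (2.75 to 4.62) in MOL5/6a, 3.76 (3.09 to 4.51) in MOL2a and 3.07 (1.52 to 5.36) in MOL5/6d, the last resting on 3 control UMIs. In MFOLb and MOL2b control vOLCs held 0 UMIs of Tubb3 against 14 and 164 in ectopic vOLCs. Summed neuron markers differed little between the 2 libraries, and the weighted ratio of Tubb3 was 3.15. Of 23 genes tested within 2 Mb of Tubb3 (chr8:123411424-123422015, GRCm38), 0 were at least 1.5-fold higher and 1 lower, beside 1.5% and 11.9% of all genes. The other tubulins differed less, of which Tubg1, a gamma-tubulin, had the highest ratio (31.7, 23.2 and 27.5 CPM, 0.45 and weighted 0.74). Tuba1a was at 2533, 2179 and 1987 CPM (0.22, 0.18 to 0.25), and Tubb5 at 131.5, 100.5 and 116.1 CPM (0.39, 0.24 to 0.54), both higher in 8 of 8 clusters. Tubb4a, a beta-tubulin of mature oligodendrocytes, was at 2223, 2404 and 2183 CPM (-0.11, -0.15 to -0.08) and lower in 7 of 8 clusters. Of the 7 tubulins tested, 1 was higher and 0 lower by 1.5-fold, beside 1.5% and 11.9% of all genes, and the median was 0.22. With weighted clusters 2 were higher, Tubb3 and Tubg1.

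Tppp, whose product nucleates microtubules from Golgi outposts in oligodendrocyte processes, was lower in ectopic vOLCs. Its level was 129.6 CPM, against 309 in control vOLCs and 340 in control dOLCs (-1.25, -1.36 to -1.15), and lower in 8 of 8 clusters. The ratio was -1.02 in MOL5/6a, -1.20 in MOL5/6d, -1.59 in MOL5/6b and -1.46 in MOL2a. Its paralogue Tppp3 went the other way in the summed cells, with 398.4, 259.4 and 368.4 CPM (0.62), but this vanished with weighted clusters (0.01) and in MOL5/6a (-0.05). Among 25 microtubule-associated and motor proteins, 1 was higher and 5 lower by 1.5-fold, beside 1.5% and 11.9% of all genes, with a median of -0.22 (weighted -0.14). The lower ones included Dst (100.3, 190.3 and 244.1 CPM, -0.92), a cytoskeletal linker, and Dpysl2 (277.3, 493.3 and 486 CPM, -0.83), a collapsin response mediator that binds tubulin. Kif1b, a kinesin needed for mRNA transport into myelinating processes, stood at 752 CPM in ectopic vOLCs and at 1088 and 1260 in control vOLCs and dOLCs (-0.53, -0.58 to -0.48). It was lower in 8 of 8 clusters, yet weighting brought it to -0.21.

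Several other genes were higher in ectopic vOLCs than in both control libraries. The long noncoding RNA Gm26870 was below the filter on low counts, with 57, 2 and 6 UMIs or 4.42, 0.459 and 0.302 CPM (3.27, 1.35 to 6.35, and weighted 4.23). Arhgap15, a Rac GTPase-activating protein, stood at 26.8, 4.13 and 1.81 CPM in ectopic vOLCs, control vOLCs and control dOLCs (2.70, 2.02 to 3.47). Magi1, a scaffold protein of cell junctions, stood at 140.5, 46.1 and 53.4 CPM (1.61, 1.40 to 1.82), and it was higher in 8 of 8 clusters, with ratios from 0.66 in MOL2a to 2.38 in MOL5/6c. Npsr1, the receptor for neuropeptide S, was at 109, 43.8 and 33.5 CPM (1.31, 1.09 to 1.54), again higher in 8 of 8. All 3 kept ratios past 1.5-fold in every alternative tried, control dOLCs as the control included, although that of Arhgap15 was 1.43 with cells thinned to 1000 UMIs. Dnah14, an axonemal dynein heavy chain, stood at 78.6, 32.1 and 44.9 CPM (1.29, 1.03 to 1.56). Itih3, an inter-alpha-trypsin inhibitor heavy chain that binds hyaluronan, stood at 66.3, 27.1 and 34.1 CPM (1.29) and was higher in 7 of 8 clusters; it was named for its place among the highest ratios in MOL5/6a and MOL2a.

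Il33, an alarmin cytokine and a marker of MOL5/6, stood at 1041 CPM in ectopic vOLCs, 507.3 in control vOLCs and 638.9 in control dOLCs (1.04, 0.97 to 1.10). It was higher in 8 of 8 clusters, but by less within them: 0.64 (0.54 to 0.74) in MOL5/6a and 0.47 (0.28 to 0.67) in MOL5/6d, and 0.58 with weighted clusters. The list of antigen presentation and reactive genes, to which it belongs, had 10 members tested, 1 higher and 1 lower, beside 1.5% and 11.9% of all genes, and a median of 0.21 (weighted 0.24). Its class I genes H2-K1 (46.9, 32.1 and 25.7 CPM, 0.55, 0.28 to 0.82) and H2-D1 (51.3, 35.1 and 27.6 CPM, 0.55, 0.29 to 0.81) were under 1.5-fold. With weighted clusters H2-K1 was past that limit (0.67) and H2-D1 was not (0.26), while Il33 was just under it. Polr2f, a subunit shared by the nuclear RNA polymerases, was at 448.9, 264.4 and 198.2 CPM (0.76, 0.67 to 0.86), with 0.35 after weighting and 0.14 (-0.03 to 0.32) in MOL5/6a. Polr2f (chr15:79141009-79151774) lies next to Sox10 (chr15:79154908-79165240), whose regulatory sequence drives the transgenes. Sox10 itself was at 354.6, 376.4 and 483.1 CPM (-0.09). Whether the transgene has a part in the level of Polr2f was not tested.

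**Figure D2:**
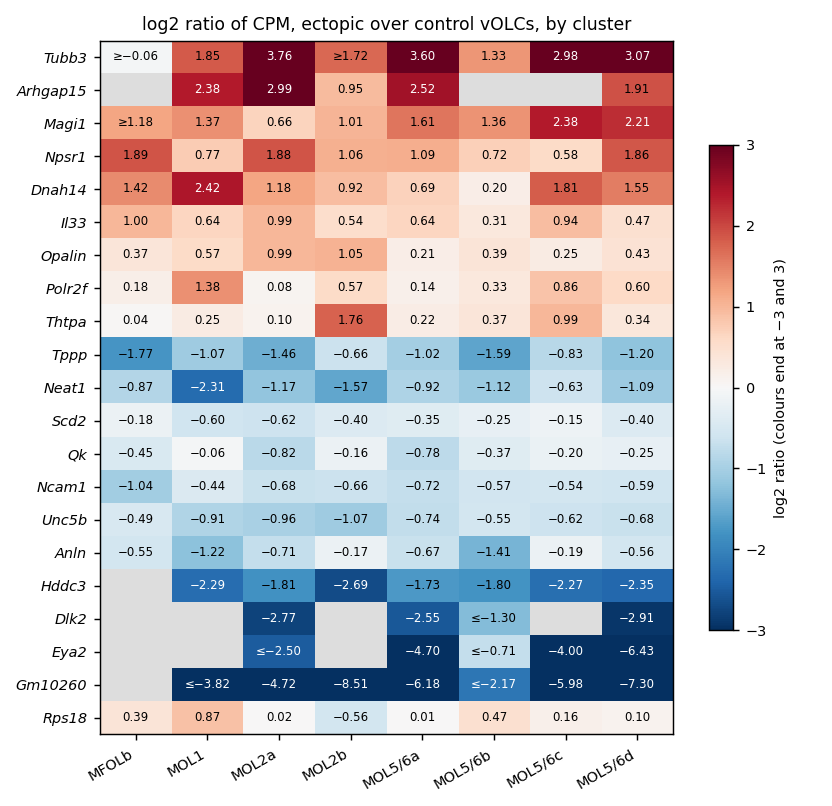
Log2 ratio of CPM (ectopic over control vOLCs) of 21 genes in each of the 8 clusters. Red is higher and blue lower in ectopic vOLCs, grey marks fewer than 10 UMIs in both libraries together, and a sign before a number marks a bound computed from a floor of 3 counts where 1 library held 0. The rows of Tubb3 to Thtpa are above 0 and those of Tppp to Gm10260 below 0 in every filled cell but the bound of Tubb3 in MFOLb (-0.06), and Rps18 stays near 0 in MOL5/6a and MOL2a.

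A few genes were almost absent from ectopic vOLCs while similar in both controls. Of these, Eya2, Slpi and Dlk2 passed the filter on low counts through control vOLCs alone. Eya2, a transcriptional coactivator with phosphatase activity, held 19 UMIs in ectopic and 179 in control vOLCs, or 1.47 and 41.1 CPM beside 43.2 in control dOLCs (-4.80, -5.57 to -4.12). In MOL5/6a the ratio was -4.70 (-5.97 to -3.65) and in MOL5/6d -6.43 (-8.02 to -5.10), and in MOL2a ectopic vOLCs held 0 UMIs against 29. Slpi, a secreted inhibitor of leukocyte proteases, stood at 1.24, 21.1 and 21.5 CPM (-4.09, -4.96 to -3.31, and weighted -4.99). Slpi (chr2:164354070-164389095) and Eya2 (chr2:165595032-165771727) are neighbours on 1 chromosome, and each was the lowest of the genes tested within 2 Mb of the other. Of the 23 genes tested around Eya2, 5 were at least 1.5-fold lower, Slpi among them and beside 11.9% of all genes, and the median was -0.19.

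Dlk2, a Notch-related transmembrane protein, was at 3.57, 33.7 and 40.6 CPM (-3.24, -3.75 to -2.75). Erdr1 was at 9.23, 51.6 and 44.2 CPM (-2.48, -2.82 to -2.16, and -1.55 with weighted clusters), Hddc3 at 18.9, 66.8 and 69.4 (-1.82, -2.07 to -1.57) and Fam189a2 at 7.83, 27.5 and 28.4 (-1.81, -2.21 to -1.42). These 6 genes, with Gm10260 below, remained past 1.5-fold in every alternative tried, control dOLCs as the control included. Control dOLCs come from the same control mice and were set against the same ectopic library, so that alternative adds no mice. Neat1, the long noncoding RNA that scaffolds paraspeckles, was at 180.6, 457 and 413.8 CPM (-1.34, -1.43 to -1.25) and lower in 8 of 8 clusters, with -0.92 in MOL5/6a.

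Near-identical gene copies held the lowest ratio of all. Gm10260 is a copy of the ribosomal protein gene Rps18, with 99.08% identity over 545 aligned bases, and it held 19 UMIs in ectopic and 482 in control vOLCs (1.47 and 110.6 CPM, and 72.3 in control dOLCs). Its ratio was -6.23 (-6.98 to -5.57). The coding sequences differ at 4 of 459 bases. The stretch below, bases 337 to 396 of the coding sequence in GENCODE M21 on GRCm38, is shown because it holds 2 of these differences, which are in capitals and which are all that separates a read of this stretch between both genes.
Rps18 (chr17:33951999-33956001, minus strand): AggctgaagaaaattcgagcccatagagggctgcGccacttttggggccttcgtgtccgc
Gm10260 (chr13:97760072-97760632, minus strand): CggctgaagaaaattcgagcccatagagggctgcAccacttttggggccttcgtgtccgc

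Rps18 was higher in ectopic vOLCs over the summed cells, at 552.9 CPM against 351.4 in control vOLCs and 471 in control dOLCs (0.65, 0.57 to 0.73, and weighted 0.20). Within MOL5/6a its ratio was 0.01 (-0.15 to 0.17) and within MOL2a 0.02 (-0.25 to 0.28). The sum of Rps18 and Gm10260 gave 0.26 (0.19 to 0.33) over all clusters, -0.34 (-0.49 to -0.20) in MOL5/6a and -0.33 (-0.59 to -0.08) in MOL2a. How reads were shared out between such genes was not tested here, and each gene of a pair is uncertain on its own.

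Gm8730, a processed copy of the ribosomal stalk gene Rplp0, was also lower than in both controls. It was at 331.9 CPM in ectopic vOLCs, 606.7 in control vOLCs and 562.1 in control dOLCs (-0.87, -0.94 to -0.80), with -1.24 (-1.38 to -1.11) in MOL5/6a. Rplp0 stood at 664.1, 669.6 and 554.5 CPM (-0.01, -0.07 to 0.05), and the sum of both gave -0.36 (-0.40 to -0.31). The copy differs from the 954 coding bases of Rplp0 at 12 positions, and bases 390 to 449 with 3 of them, in capitals, show how alike the pair is.
Rplp0 (chr5:115559467-115563727, plus strand): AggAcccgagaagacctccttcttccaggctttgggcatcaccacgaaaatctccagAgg
Gm8730 (chr8:102864845-102865798, minus strand): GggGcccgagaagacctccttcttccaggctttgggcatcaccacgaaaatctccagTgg

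For some other copies the control vOLCs stood apart from both other libraries. Rps27rt, identical to Rps27 over 341 aligned bases, was at 44.4, 112.9 and 40.5 CPM in ectopic vOLCs, control vOLCs and control dOLCs (-1.35). Rpl6l, a copy of Rpl6, was at 60.3, 138.2 and 51.9 CPM (-1.20, and weighted -1.83). Of 10 ribosomal protein copies tested, 9 were at least 1.5-fold lower, beside 11.9% of all genes, and their median of -1.30 became -2.07 with weighted clusters. Gm12166, 99.47% identical to the vesicle transport gene Sft2d1, was at 18.7, 91.8 and 38.7 CPM (-2.30), with a ratio of -1.05 against control dOLCs as well, whereas Sft2d1 was at 205.6, 179.3 and 108.3 CPM (0.20). The copies list was drawn up after values had been seen, so its counts support nothing.

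**Figure D3:**
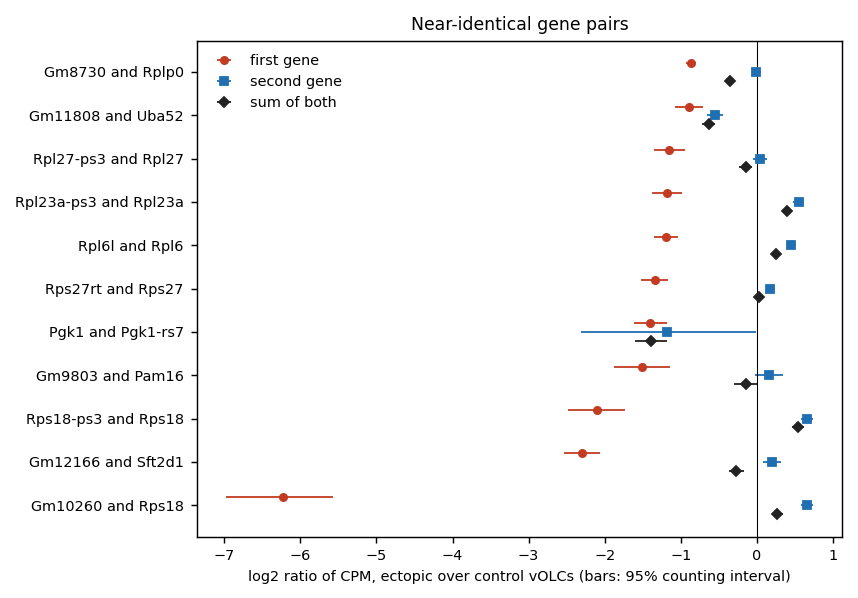
Log2 ratio of CPM (ectopic over control vOLCs, 8 clusters summed) for pairs of near-identical genes, with the first and the second gene of each pair and their sum, and bars for the 95% counting interval. The first gene of each pair lies at -0.87 or lower, while the sums lie between -1.40 and 0.54.

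The same pattern held for some genes that are not ribosomal. Padi3, a peptidylarginine deiminase, was at 3.41 CPM in ectopic vOLCs, 23.9 in control vOLCs and 2.41 in control dOLCs (-2.81, -3.35 to -2.28), so that the ectopic level was close to that of dOLCs. Its neighbour and paralogue Padi2, which citrullinates myelin basic protein, did not share this pattern. Padi2 was at 29.9, 66.8 and 68.1 CPM (-1.16), so that both controls were alike and the ectopic level lay below them. St3gal5, which makes the ganglioside GM3, was at 17.8, 62.4 and 23.4 CPM (-1.81, -2.07 to -1.55). Pgk1, a glycolytic kinase with a fully identical stretch in Pgk1-rs7, was at 29.4, 77.8 and 21.7 CPM (-1.40). In the opposite direction, Bex2 (25.8, 10.3 and 26.3 CPM, 1.32), Ntrk2, the receptor for BDNF (28.7, 15.1 and 25.1 CPM, 0.92), and Amer2 (96.5, 59.2 and 96.2 CPM, 0.70 and weighted 0.29) were low in control vOLCs alone. Against control dOLCs the ratios of Bex2, Padi3, Gm10116 and Pgk1 turned sign (-0.03, 0.50, 0.37 and 0.44), as did those of the copies Rps27rt (0.13) and Rpl6l (0.22).

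Axon guidance genes had the lowest median among the pathway lists, those of cell type markers and ribosomal genes left aside. Of 13 tested, 0 were higher and 8 lower by 1.5-fold, where the share over all genes was 11.9%, and the median was -0.71, or -0.51 with weighted clusters. Over the alternatives tried this median ranged from -0.79 to -0.47. Unc5b, a netrin receptor, was at 608.5 CPM in ectopic vOLCs, 1117 in control vOLCs and 712.7 in control dOLCs (-0.88, -0.93 to -0.82), lower in 8 of 8 clusters and by -0.74 in MOL5/6a and -0.96 in MOL2a. Ephb1, an ephrin receptor, was at 101, 168.2 and 188 CPM (-0.74, -0.87 to -0.60, and weighted -0.51) and Sema6d, a transmembrane semaphorin, at 112.1, 185.5 and 157.1 (-0.73, -0.85 to -0.60), both lower in 8 of 8 clusters. Rtn4, the source of Nogo-A, was close to level (1454, 1572 and 1633 CPM, -0.11 and weighted 0.02). The ectopic level of Unc5b thus lay nearer to control dOLCs than to control vOLCs, and that of Ephb1 below both.

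The axoglial contact list had 0 of 16 higher and 3 lower, beside 11.9% of all genes lower, and a median of -0.42. With weighted clusters 1 was lower and the median was -0.23. Ncam1, a cell adhesion molecule, was at 167.6, 337.9 and 244.8 CPM (-1.01, -1.11 to -0.92), lower in 8 of 8 clusters and by -0.72 in MOL5/6a. Nfasc, whose glial form anchors the paranode, was at 189.9, 294 and 352.4 CPM (-0.63, -0.73 to -0.53), and -0.25 with weighting. Hapln2, a link protein of the node of Ranvier, was at 597.4, 872.5 and 671.4 CPM (-0.55, -0.60 to -0.49), and -0.25 with weighting. Anln, a septin-binding protein of the cytoskeleton list, was at 132.7, 258.7 and 199.2 CPM (-0.96, -1.07 to -0.85) and lower in 8 of 8 clusters. Among 5 forebrain patterning factors tested, 0 were higher and 2 lower, Eya2 among them, beside 11.9% of all genes lower.

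In the lipid lists, most members were under 1.5-fold, and the share of lower genes can be read against 11.9% over all genes. Fatty acid genes had a median of -0.35 (0 of 21 higher, 5 lower) that shrank to -0.07 with weighted clusters and in MOL5/6a. Scd2, the stearoyl-CoA desaturase of myelinating cells, was at 1896 CPM in ectopic vOLCs, 3193 in control vOLCs and 3613 in control dOLCs (-0.75, -0.78 to -0.72). It was lower in 8 of 8 clusters, by -0.35 (-0.41 to -0.29) in MOL5/6a and -0.62 (-0.71 to -0.53) in MOL2a, and by -0.35 with weighting. Elovl6, a fatty acid elongase, kept its ratio on weighting (97.8, 149 and 142.1 CPM, -0.61 and weighted -0.59), while Fasn, fatty acid synthase, did not (93.9, 145.8 and 180.5 CPM, -0.63 and -0.17). The cholesterol list had 0 of 22 higher and 4 lower, and its median of -0.15 turned to 0.10 with weighting and 0.02 with TMM factors.

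In the sphingolipid list (0 of 26 higher, 4 lower, median -0.11 and weighted 0.01), Ugt8a, which makes the galactolipids of myelin, was at 568.8, 913.3 and 816.7 CPM (-0.68) and -0.28 with weighting. Abca2, a lipid transporter of the lysosome, was at 394.1, 675.3 and 736.4 CPM (-0.78) and -0.32 with weighting. Both were lower in 8 of 8 clusters. The list of ion channels and cation transporters had 0 of 11 higher and 3 lower, beside 11.9% of all genes lower, with a median of -0.29. With weighted clusters 1 was higher and 1 lower, and the median was -0.03. Hcn2, a pacemaker channel, was at 530.1, 981.5 and 849.9 CPM (-0.89, -0.94 to -0.83) and -0.47 with weighting, and Kcnj10, the Kir4.1 potassium channel, was at 365.2, 592.7 and 455.6 CPM (-0.70, -0.77 to -0.63) and -0.72 with weighting. The remaining lower gene was Slc12a2, a sodium-potassium-chloride cotransporter, at 317.4, 552 and 580.3 CPM (-0.80) and -0.39 with weighting.

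Of 15 myelin protein genes tested, 1 was higher and 1 lower by 1.5-fold, near the 1.5% and 11.9% of all genes, and the median was 0.11 (weighted -0.04). Mbp, which encodes myelin basic protein, was at 6731, 6116 and 6181 CPM (0.14), turning to -0.11 on weighting. The higher gene was Opalin, a marker of the myelin-forming stage, at 1987, 1273 and 1504 CPM (0.64, 0.60 to 0.68). It was higher in 8 of 8 clusters, by 0.21 (0.14 to 0.27) in MOL5/6a and 0.99 (0.83 to 1.15) in MOL2a, and by 0.39 with weighting, which is under 1.5-fold. The lower one was Omg, at 174.6, 262.4 and 139.5 CPM (-0.59), and -0.24 with weighting. Among 23 lineage transcription factors, beside 1.5% of all genes higher and 11.9% lower, 0 were higher and 1 was lower: Myrf, which switches on myelin genes, at 188.5, 297.5 and 295.9 CPM (-0.66, -0.76 to -0.56), and -0.42 with weighting.

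Qk, an RNA-binding protein that stabilises myelin mRNAs, was at 796.1, 1130 and 1313 CPM (-0.50, -0.55 to -0.46). It was lower in 8 of 8 clusters, with -0.78 in MOL5/6a, and its weighted ratio was -0.48. Its list of RNA-binding regulators had 0 of 22 higher and 3 lower, close to the 11.9% lower over all genes, with a median of -0.13 (weighted -0.27). The same share applies to the next 2 lists. Sgk1, a stress-responsive kinase, was at 351.9, 235.1 and 233.4 CPM (0.58, 0.48 to 0.68), just short of 1.5-fold, and the immediate early and heat shock list as a whole had 0 of 15 higher and 2 lower. Mitochondrially encoded genes had 0 of 13 higher and 3 lower, with a median of -0.12 (weighted 0.20); ectopic cells of MOL5/6a held a median of 8.73% mitochondrial counts and control cells 6.73%. The other lists (glycolysis, iron handling, lysosome, receptors, actin and long noncoding RNAs) had at most 3 members past 1.5-fold in either direction. Over all genes 1.5% were higher and 11.9% lower. The summed medians of these lists lay between -0.21 and 0.13. That of the long noncoding RNAs was 0.03 with 3 of 10 lower, and -0.30 with 4 lower on weighting. Its lower members include Gm10260, the copy of Rps18 described above.

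**Figure D4:**
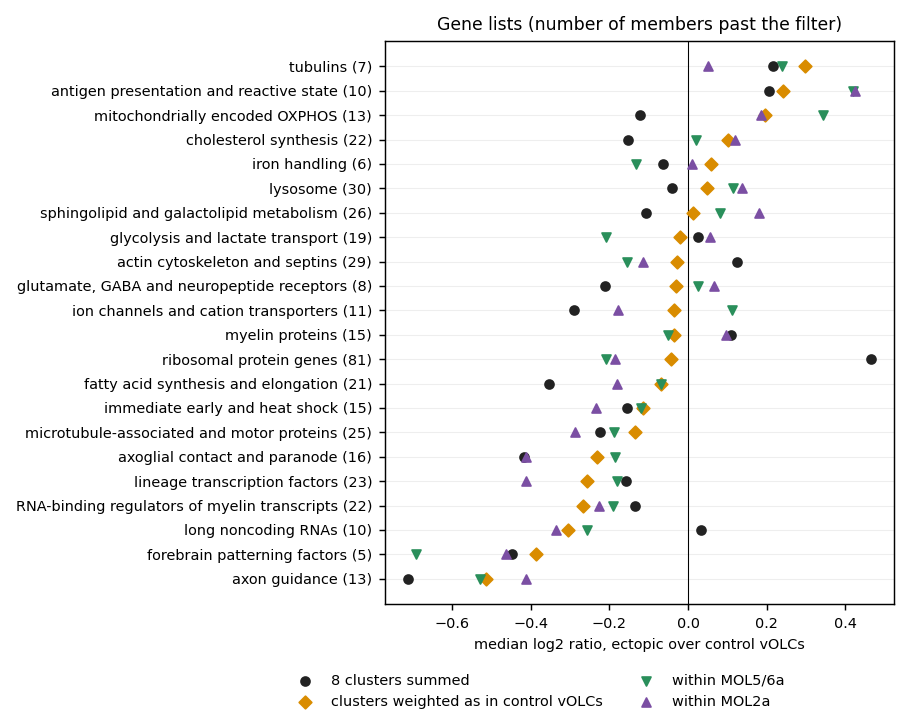
Median log2 ratio (ectopic over control vOLCs) of each gene list, with the number of members tested over the summed cells in parentheses. Points give the 8 clusters summed, the clusters weighted as in control vOLCs, and the cells of MOL5/6a or MOL2a alone. Axon guidance genes lie left of 0 in all 4 measures, while ribosomal protein genes move from 0.47 summed to -0.04 weighted.

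Ribosomal protein genes differed over the summed cells but not in that direction within MOL5/6a or MOL2a. Of 81 tested, 19 were higher and 1 lower by 1.5-fold, beside 1.5% and 11.9% of all genes, with a median of 0.47, and they took 5.386% of UMIs in ectopic vOLCs, 4.004% in control vOLCs and 5.109% in control dOLCs. With weighted clusters 0 were higher and 3 lower, beside 1.31% and 11.5% of all genes, and the median was -0.04. It was -0.21 within MOL5/6a, -0.18 within MOL2a, -0.04 within MOL5/6b, 0.00 within MOL5/6d and 0.11 within MOL5/6c, but 0.69 within MOL1. Klk6, a marker of MOL2, differed by cluster weighting too, with 110.4, 437.5 and 97.4 CPM over the summed cells (-1.99) and -0.15 with weighted clusters. In MOL2a itself Klk6 was at 1412 CPM in ectopic vOLCs, 1451 in control vOLCs and 546 in control dOLCs (-0.04, -0.15 to 0.08), so that both ventral libraries lay above the dorsal one.

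Ratios also ran with transcript length. Over 5491 genes with a GENCODE length, the Spearman correlation across genes between the longest transcript and the log2 ratio was -0.50 for the summed cells and -0.22 with weighted clusters. It was -0.13 over 5192 genes within MOL5/6a and -0.21 over 4287 genes within MOL2a. Genes share their libraries and are not independent replicates, so these values are descriptions. The fifth of genes with the shortest transcripts had a median ratio of 0.16, with 58 of 1101 at least 1.5-fold lower, and the fifth with the longest -0.38, with 316 of 1098 lower. For control vOLCs over control dOLCs the correlation was -0.07. The part of length in the ratios of the gene lists was not tested.

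**Figure D5:**
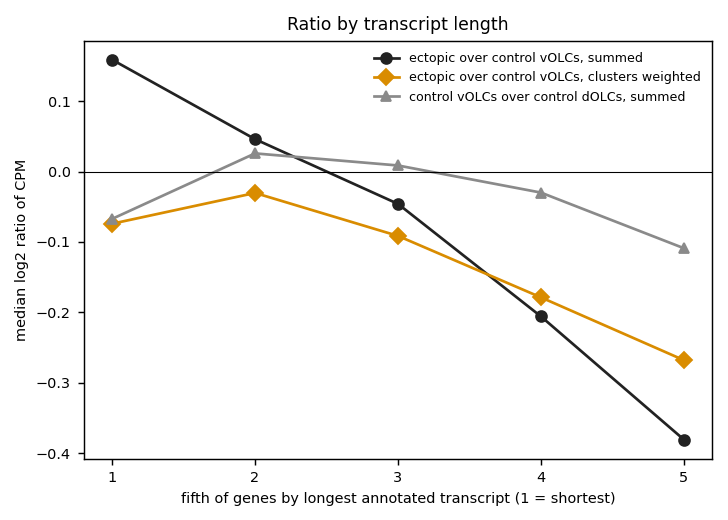
Median log2 ratio of CPM in 5 groups of genes ordered by longest annotated transcript (1 shortest, 5 longest), for ectopic over control vOLCs summed and with weighted clusters, and for control vOLCs over control dOLCs. The summed ratio is 0.16 in the shortest and -0.38 in the longest group, and the weighted ratio -0.07 and -0.27.

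Cluster by cluster, lower genes outnumbered higher ones in MOL2a and in MOL5/6a to MOL5/6d, and the reverse held in MOL1, MOL2b and MFOLb. In MOL5/6a, the cluster with the most cells on both sides, 91 of 5346 genes (1.7%) were higher and 690 (12.9%) lower, with a median of -0.16. In MOL2a 144 of 4413 (3.26%) were higher and 760 (17.2%) lower, with a median of -0.14. In MOL5/6b 126 of 3042 (4.14%) were higher and 649 (21.3%) lower, and in MOL5/6c 62 of 2025 (3.06%) and 120 (5.93%). MOL5/6d, with 35 control cells, had 777 of 6479 (12%) higher and 1126 (17.4%) lower, and MOL1 317 of 1889 (16.8%) and 174 (9.21%). With 6 and 8 control cells, MOL2b had 599 of 2621 (22.9%) higher and 325 (12.4%) lower, and MFOLb 215 of 847 (25.4%) and 75 (8.85%). The median half-width of a gene's counting interval was 0.42 in MOL5/6a but 0.94 in MOL5/6b, which holds 42 ectopic cells. It was 0.95 in MOL5/6d and 1.32 in MOL2b. A gene of median precision could therefore not be read at 1.5-fold in the thinly filled clusters.

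The genes at the ends of the order within clusters included many of those above. In MOL5/6a, Tubb3, Itih3 and Crtac1 (23.5, 13.1 and 20.0 CPM over the summed cells, 0.84) had the highest ratios, and Gm10260, Eya2 and Rps18-ps3 the lowest. In MOL2a they were Tubb3, Itih3 and Npsr1, and Gm10260, Rpl6l and Rps27rt. In MOL5/6b and MOL5/6c, Magi1 was among the 3 highest, and Gm10260 was among the 3 lowest in MOL5/6a to MOL5/6d and in MOL2a. With the 4 MOL5/6 clusters summed, 1.46% of 5496 genes were higher and 12.4% lower, and with both MOL2 clusters summed 5.7% of 5527 and 13%. No gene was past 1.5-fold in opposite directions in MOL5/6 and in MOL2 with both intervals clear of 0.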

How the data were processed

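Sorted cells were processed on the 10x Genomics Chromium platform (3′ kit v2). The values used are UMI counts of 27998 genes per cell, deposited without normalization, together with an annotation of cells with library, cluster and mitochondrial share, the last computed by the authors as a percent of UMIs. Per the submitters' processing notes the reads went through Cell Ranger 2.1.1 on mm10, whereas the methods of the study name version 3.1.0 of the platform. The authors kept cells with over 200 and under 3000 genes and at most 15% mitochondrial counts, and clustered and named them. Of the annotation's columns, 5 were not used.

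For each library and cluster, the UMIs of its cells were added up. Genes needed 50 UMIs in both libraries together and a UMI in 10% of the cells of 1 library. A gene could thus pass through the library where it was high, as Eya2, Slpi, Dlk2, Tubb3 and Arhgap15 did. The counts of higher and lower genes include such genes. A difference of 1.5-fold was the limit for counting a gene as higher or lower, and a library at 0 was given a floor of 3 counts. Intervals are conditional exact binomial (Clopper-Pearson) at 95%. With 1 library a side no test, standard error or adjusted p-value is given, whatever the methods of the study used. Named genes were the 12 highest and 12 lowest ratios with 1 sign in every cluster with 10 or more UMIs, the extreme and the most abundant members of each list, the 3 extremes within each cluster, and genes named by the study or by earlier results. Genes outside this rule (Tubb5, Tubg1, Dst, Dpysl2, H2-K1, H2-D1, Ephb1, Sema6d, Nfasc, Fasn, Kcnj10, Mbp, Sox10, Padi2 and the partners of gene copies) were picked after their values were seen. The clusters, gene lists and named genes were chosen with earlier results of these data known, and both ribosomal lists after values were seen. No doublet caller was run, and cells with the most UMIs or with markers of other cell types were left out in 2 alternatives instead. Transcripts of the reporters, Cre or DTA and the 4 P0 samples were not analysed here, and single values of some list members are not reported here.

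Positions and transcript lengths came from GENCODE M21 (GRCm38), in which 26604 symbols matched, and similarity from BLAST 2.17.0. The steps were tested on simulated data. Tools were Python 3.11.15, numpy 2.4.6, scipy 1.17.1, pandas 2.3.3, matplotlib 3.10.9, R 4.3.3, edgeR 4.0.16 for TMM factors and DESeq2 1.42.0 for size factors.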

Additional observations from a re-analysis of the deposited data

How the results depend on the processing

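No paired analysis was possible because there is a single library on each side. The number of genes at least 1.5-fold higher was 85 and of those lower 675. The higher number became 298 with TMM factors (lower 365), 206 with median of ratios size factors, 172 without MOL5/6a and MOL5/6d, 330 without cells holding 3 or more UMIs of markers of other cell types and 46 with control dOLCs as the control. With no filter beyond 1 UMI the numbers were 803 and 3263 of 13417 genes, with cells thinned to 1000 UMIs 45 and 144 of 1489 genes, and with a fold of 2 they were 11 and 146. Leaving out cells by markers kept 315 ectopic and 133 control cells, so this alternative rests on few cells. TMM factors shift every log2 ratio by 0.17 and median of ratios factors by 0.12. The cause of the other moves was not tested. The median over all genes, -0.05, ranged from -0.18 with no filter to 0.12 with TMM factors.

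Of 36 genes, those with the extreme ratios of 1 sign across clusters and those named by the study or by earlier results, 33 were past 1.5-fold, 32 kept 1 direction in every alternative, and 18 stayed past 1.5-fold. Against control dOLCs the direction turned for Bex2 (-0.0331), Padi3 (0.50) and Gm10116 (0.37), and Rplp0, which was near 0, also changed sign. Genes named only as members of a list or as extremes within a cluster were not part of this tally. Of 21 list medians, 7 kept 1 direction in every alternative, among them axon guidance, axoglial contact and patterning factors, and 14 did not. Every alternative was tried as planned. Depth limits the clusters with few cells on either side, and mice cannot be told apart in either library.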
